A study of Mus musculus with 24 samples.

Results

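The hypoxia and energy-stress genes described here are 8 genes, Ddit4, Bhlhe40, Bhlhe41, Vegfa, Slc2a1, Pdk1, Egln3 and Ndrg1, out of 23284 gene symbols in the count table. They were taken as the rows of that table with these symbols, and the set was selected on counts of these samples: it was proposed with differences between genotypes and states in these data already known, so values that may have chosen a gene are given as a description. The cells were mouse embryonic stem (ES) cells of strain C57BL/6, and their polyadenylated RNA was sequenced in 24 libraries that cover 4 genotypes and 3 states. The line carries floxed Eed, the gene of a core subunit of the Polycomb repressive complex that methylates histone H3 at lysine 27. Per the labels, KO+N-KR cells are the Eed knockout with the EED form named N-KR added, KO+WT cells are the knockout with wild-type EED added, KO cells are the knockout alone, and f/f cells are the conditional line. KO+N-KR, KO+WT and KO cells were treated with 4-hydroxytamoxifen (800 nM) to delete Eed, and f/f cells were not. The meaning of N-KR and of 3i is not given in the labels, nor do they say how the added EED is driven, or whether a line is 1 clone. The 3 states are ES cells labelled 3i and embryoid bodies (EBs), aggregates in which ES cells begin to differentiate, at day 1 and day 2. Mouse embryonic fibroblasts served as feeders for all lines, in medium that held serum and LIF.

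The 2 libraries of each genotype and state differed by little more than sampling noise, so they were summed. The resulting 12 samples held between 18017598 and 25160294 counts, with a single sample for each state of each genotype. Where f/f cells are compared, the effects of tamoxifen, of the history of the line and of genotype cannot be told apart. Between the tamoxifen-treated lines the last 2 cannot be told apart. Eed itself was at 122 to 183 CPM in KO+N-KR samples, 188 to 387 CPM in KO+WT samples, 102 to 175 CPM in KO samples and 130 to 221 CPM in f/f samples. Counts per gene do not separate a deleted exon from the rest of the gene, so these levels do not check the deletion. All 8 ES cell markers were detected in all 12 samples, and their summed level was 4738 to 7107 CPM.

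Cells short of oxygen stop destroying the alpha subunits of the hypoxia-inducible factors (HIFs), which then pair with ARNT and switch on genes for glucose uptake, glycolysis, vessel growth and oxygen sensing. Ddit4 (also called REDD1) is an inhibitor of the growth kinase complex mTORC1 and is induced by hypoxia, energy shortage and other stresses. Bhlhe40 and Bhlhe41 are transcriptional repressors of the basic helix-loop-helix family that bind E-boxes, respond to HIF and feed back on the circadian clock. Vegfa is the main growth signal for blood vessels, Slc2a1 encodes the glucose transporter GLUT1, Pdk1 encodes a kinase that holds pyruvate back from the mitochondria, Egln3 encodes the oxygen-sensing prolyl hydroxylase PHD3 and Ndrg1 is a stress-responsive gene linked to differentiation. ES cells rely strongly on glycolysis, which several of these genes serve.

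HIFs bind the core letters ACGTG or GCGTG, and BHLHE40 and BHLHE41 bind CACGTG, which holds ACGTG on both strands. Promoter sequence was found for 6 of the 8 genes in RefSeq (GRCm38.p6). The 4 upstream windows of 250 bases printed here belong to the 2 pairs of genes whose levels ran together most closely across the samples, Ddit4 with Slc2a1 and Pdk1 with Egln3, and they were chosen after those levels were seen. Capitals mark a match to ACGTG or GCGTG on either strand, and each sequence runs 5′ to 3′ on the strand of its gene and ends at the base before the annotated start. The windows are chr10:59951771-59952020 on the minus strand for Ddit4, chr4:119108495-119108744 on the plus strand for Slc2a1, chr2:71872974-71873223 on the plus strand for Pdk1 and chr12:54203875-54204124 on the minus strand for Egln3.
Ddit4: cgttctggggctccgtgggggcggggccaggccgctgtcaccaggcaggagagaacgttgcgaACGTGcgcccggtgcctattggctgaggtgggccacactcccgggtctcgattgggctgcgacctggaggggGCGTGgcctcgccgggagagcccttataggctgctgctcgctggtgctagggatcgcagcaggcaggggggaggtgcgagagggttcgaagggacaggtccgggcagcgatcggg
Slc2a1: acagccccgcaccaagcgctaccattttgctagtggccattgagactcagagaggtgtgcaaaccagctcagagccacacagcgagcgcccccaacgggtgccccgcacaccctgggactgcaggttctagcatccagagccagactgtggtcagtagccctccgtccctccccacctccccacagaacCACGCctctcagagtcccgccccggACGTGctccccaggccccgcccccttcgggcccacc
Pdk1: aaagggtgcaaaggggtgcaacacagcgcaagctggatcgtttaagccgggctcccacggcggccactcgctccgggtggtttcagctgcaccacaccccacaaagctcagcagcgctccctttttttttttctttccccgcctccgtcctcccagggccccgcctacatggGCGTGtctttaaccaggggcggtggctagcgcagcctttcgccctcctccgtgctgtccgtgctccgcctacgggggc
Egln3: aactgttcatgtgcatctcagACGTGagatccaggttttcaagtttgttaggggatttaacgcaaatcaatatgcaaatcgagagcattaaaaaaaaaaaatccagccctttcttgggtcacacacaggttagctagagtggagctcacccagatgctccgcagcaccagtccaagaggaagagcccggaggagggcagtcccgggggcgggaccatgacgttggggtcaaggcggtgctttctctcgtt
The Ddit4 window held 1 ACGTG, which begins 187 bases before the start, and 1 GCGTG at 115 bases. The Slc2a1 window held 1 ACGTG at 36 bases and 1 GCGTG at 61 bases before the start. The Pdk1 window held 1 GCGTG at 78 bases, and the Egln3 window held 1 ACGTG at 229 bases. The window of Bhlhe41 held CACGTG at 153 bases before the start and 2 matches to GCGTG. Vegfa and Pdk1 have 2 annotated starts each, and 1 of the 2 windows of each gene held neither core. Over 32851 promoter windows of the same length, 38.6% held ACGTG or GCGTG and 6.02% held CACGTG. A match is a stretch of letters and does not show binding.

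In 3i, the 8 genes were lower in the KO sample than in the f/f sample, and their levels in KO+N-KR and KO+WT samples were above those of KO cells. Levels are given in CPM, read counts scaled to the size of each library by the trimmed mean of M-values (TMM) and not divided by gene length, so they compare samples and not genes. With 1 sample per genotype and state, these ratios have no replicate check and no test. The size rule used for them asks for a difference of 2-fold or more and a level of 5 CPM or more in the higher of the pair. By that rule 3 of the 8 genes were lower in KO than in f/f cells in 3i, against 0.171% of all 15220 genes tested that were lower and 0.191% that were higher by the same rule. The median log2 ratio of the 8 genes was -1.04, against 0.00 for all genes, of which 49.9% were below 0. The 3 genes were Ddit4, Bhlhe40 and Ndrg1, and earlier results on these data had named Ddit4 and Bhlhe40. The count and the median therefore describe a set chosen on these data and do not test it against all genes.

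Ddit4, the mTORC1 inhibitor, was at 259 CPM in KO+N-KR cells, 162 CPM in KO+WT cells, 99.1 CPM in KO cells and 280 CPM in f/f cells in 3i. Ddit4 levels at EB day 1 were 111 CPM in KO+N-KR cells, 143 CPM in KO+WT cells, 163 CPM in KO cells and 190 CPM in f/f cells. Ddit4 levels at EB day 2 were 323 CPM in KO+N-KR cells, 326 CPM in KO+WT cells, 307 CPM in KO cells and 339 CPM in f/f cells. The KO sample was thus the lowest of the 4 genotypes in 3i, above both rescue lines at EB day 1, and within a narrow band with the others at EB day 2. In 3i the log2 ratio of KO to f/f cells was -1.50, and both KO libraries showed the low level, with 97.9 and 101 CPM against 278 and 287 CPM in the f/f libraries. Log2 ratios to KO cells in 3i were 1.38 for KO+N-KR cells and 0.71 for KO+WT cells. These ratios share the KO sample with the ratio of KO to f/f cells, so they are not independent of it.

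Bhlhe40, the more abundant of the helix-loop-helix repressor pair by count, was at 132 CPM in KO+N-KR cells, 112 CPM in KO+WT cells, 60.0 CPM in KO cells and 181 CPM in f/f cells in 3i. Bhlhe40 levels at EB day 1 were 26.0 CPM in KO+N-KR cells, 31.7 CPM in KO+WT cells, 62.0 CPM in KO cells and 61.4 CPM in f/f cells. Bhlhe40 levels at EB day 2 were 50.9 CPM in KO+N-KR cells, 69.1 CPM in KO+WT cells, 95.7 CPM in KO cells and 83.0 CPM in f/f cells. The order of genotypes turned round between the states: KO cells were lowest in 3i, level with f/f cells at the top at EB day 1 and highest at EB day 2. In 3i the log2 ratio of KO to f/f cells was -1.59, and at EB day 1 that of KO+N-KR to KO cells was -1.25. That last ratio was past the size rule, as were 0.644% of all genes in the lower direction and 0.388% in the higher.

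Bhlhe41, the second repressor of the pair, was the least counted member, with 11 to 155 reads per sample. Its level in 3i was 1.89 CPM in KO+N-KR cells, 1.67 CPM in KO+WT cells, 0.46 CPM in KO cells and 1.91 CPM in f/f cells. Bhlhe41 levels at EB day 1 were 1.12 CPM in KO+N-KR cells, 1.56 CPM in KO+WT cells, 0.70 CPM in KO cells and 1.85 CPM in f/f cells. Bhlhe41 levels at EB day 2 were 5.78 CPM in KO+N-KR cells, 5.90 CPM in KO+WT cells, 2.72 CPM in KO cells and 7.13 CPM in f/f cells. In contrast to the other 7 genes, Bhlhe41 was lowest in KO cells in all 3 states. Fitted over the states, its log2 fold change was -1.53 ± 0.22 (SE) in KO against f/f cells, 1.28 ± 0.23 in KO+WT against KO cells and 1.21 ± 0.23 in KO+N-KR against KO cells. No p-value is given for these 3 comparisons or for any other of Ddit4, Bhlhe40 and Bhlhe41, because earlier results on these data had named them.

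Vegfa, the vessel growth factor, was at 139 CPM in KO+N-KR cells, 118 CPM in KO+WT cells, 73.2 CPM in KO cells and 118 CPM in f/f cells in 3i. Vegfa levels at EB day 1 were 17.1 CPM in KO+N-KR cells, 19.9 CPM in KO+WT cells, 32.5 CPM in KO cells and 28.7 CPM in f/f cells. Vegfa levels at EB day 2 were 24.4 CPM in KO+N-KR cells, 29.7 CPM in KO+WT cells, 56.4 CPM in KO cells and 30.1 CPM in f/f cells. KO cells were lowest in 3i and highest at both EB days. The log2 ratio of KO to f/f cells was -0.69 in 3i, 0.18 at EB day 1 and 0.90 at EB day 2. At EB day 2 the log2 ratio of KO+N-KR to KO cells was -1.20, past the size rule, and 1.80% of all genes were lower by that rule there.

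**Figure D1:**
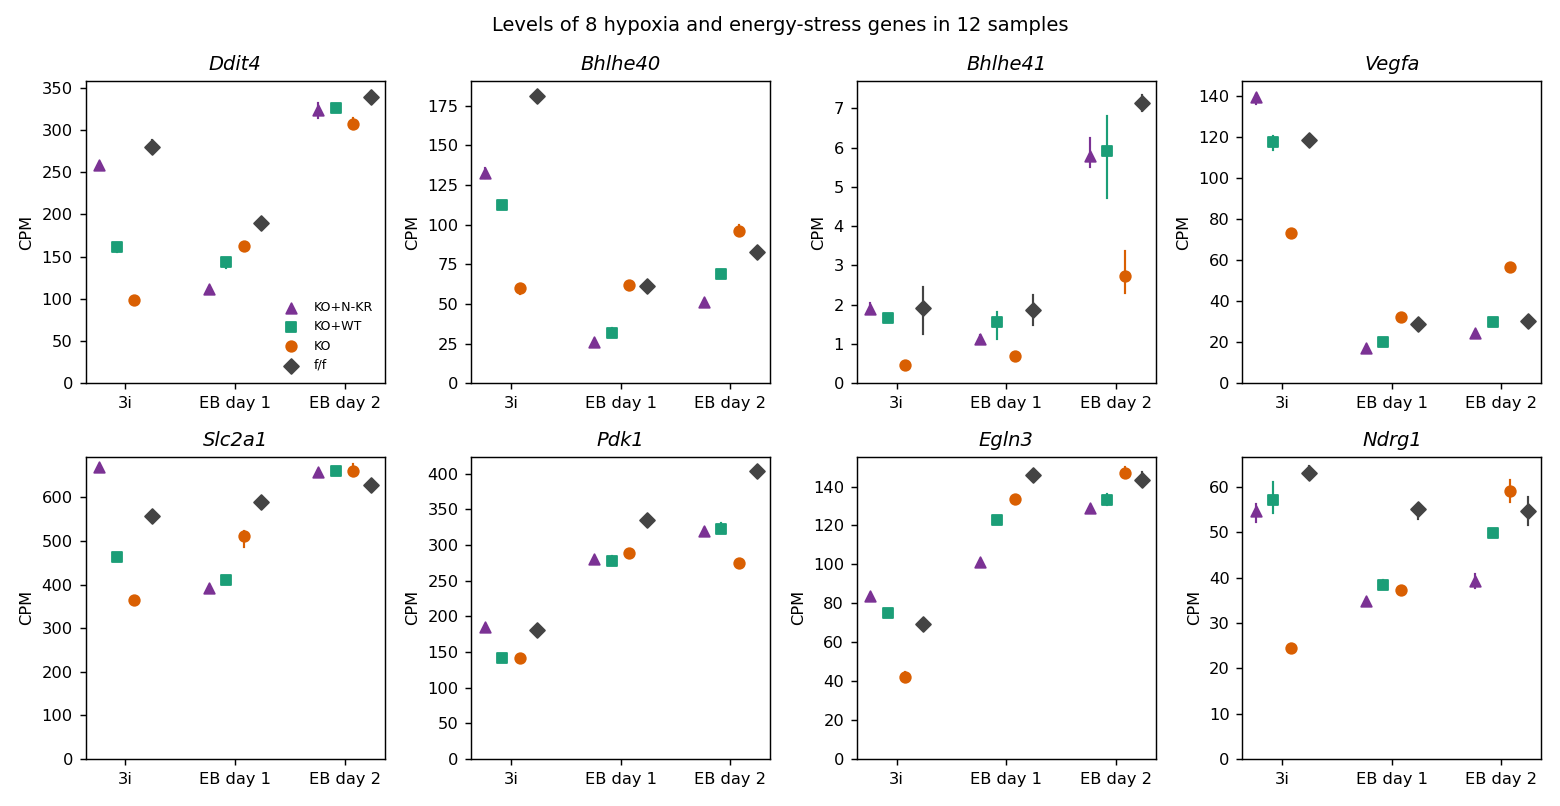
Levels of the 8 genes in the 12 samples, in CPM on linear axes that start at 0, by state from 3i to EB day 2. Each symbol is the sum of 2 libraries and each bar spans the 2 libraries. In 3i the KO symbol (orange circle) is the lowest or level with the lowest in all 8 panels, with Ddit4 at 99.1 CPM in KO cells against 280 CPM in f/f cells, while at EB day 2 Vegfa is highest in KO cells, at 56.4 CPM.

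Slc2a1, the glucose transporter gene, varied least, with a 1.84-fold range between its lowest and highest samples. Its level in 3i was 670 CPM in KO+N-KR cells, 463 CPM in KO+WT cells, 364 CPM in KO cells and 558 CPM in f/f cells. Slc2a1 levels at EB day 1 were 391 CPM in KO+N-KR cells, 410 CPM in KO+WT cells, 511 CPM in KO cells and 589 CPM in f/f cells. Slc2a1 levels at EB day 2 were 658 CPM in KO+N-KR cells, 661 CPM in KO+WT cells, 661 CPM in KO cells and 627 CPM in f/f cells. The 4 genotypes spread widely in 3i and lay close together at EB day 2, as for Ddit4.

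Pdk1, the pyruvate dehydrogenase kinase gene, was at 185 CPM in KO+N-KR cells, 142 CPM in KO+WT cells, 141 CPM in KO cells and 181 CPM in f/f cells in 3i. Pdk1 levels at EB day 1 were 280 CPM in KO+N-KR cells, 278 CPM in KO+WT cells, 288 CPM in KO cells and 335 CPM in f/f cells. Pdk1 levels at EB day 2 were 320 CPM in KO+N-KR cells, 322 CPM in KO+WT cells, 275 CPM in KO cells and 404 CPM in f/f cells. Pdk1 was higher in f/f cells than in KO and KO+WT cells in each state.

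Egln3, the oxygen-sensing hydroxylase gene, was at 83.6 CPM in KO+N-KR cells, 75.1 CPM in KO+WT cells, 42.3 CPM in KO cells and 69.5 CPM in f/f cells in 3i. Egln3 levels at EB day 1 were 101 CPM in KO+N-KR cells, 123 CPM in KO+WT cells, 133 CPM in KO cells and 146 CPM in f/f cells. Egln3 levels at EB day 2 were 129 CPM in KO+N-KR cells, 133 CPM in KO+WT cells, 147 CPM in KO cells and 143 CPM in f/f cells. The low KO level was seen in 3i and not in EBs.

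Ndrg1, the differentiation-linked stress gene, was at 54.7 CPM in KO+N-KR cells, 57.1 CPM in KO+WT cells, 24.5 CPM in KO cells and 63.1 CPM in f/f cells in 3i. Ndrg1 levels at EB day 1 were 34.9 CPM in KO+N-KR cells, 38.4 CPM in KO+WT cells, 37.3 CPM in KO cells and 55.1 CPM in f/f cells. Ndrg1 levels at EB day 2 were 39.3 CPM in KO+N-KR cells, 49.9 CPM in KO+WT cells, 59.1 CPM in KO cells and 54.8 CPM in f/f cells. In 3i the 3 other genotypes lay together at more than 2 times the KO level, with a log2 ratio of -1.36 in KO against f/f cells. The 2 libraries of a sample differed by a median of 0.02 to 0.07 on the log2 scale for the 7 genes other than Bhlhe41, and by 0.34 for Bhlhe41.

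Set against KO cells in 3i, the ratios of both rescue lines were above 0 for the 8 genes. The median log2 ratio was 1.06 in KO+N-KR against KO cells and 0.77 in KO+WT against KO cells, while all genes had medians of 0.01 in each. Ddit4, Bhlhe40 and Ndrg1 were past the size rule in KO+N-KR against KO cells, where 0.276% of all genes were higher and 0.427% lower by that rule. Earlier results had named Ddit4 and Bhlhe40, so this count is a description too. In KO+WT against KO cells Ndrg1 alone was past the rule, with a log2 ratio of 1.22, and the share of all genes higher was 0.315% and lower 0.217%. For Pdk1 the KO+WT and KO levels were all but equal, with a log2 ratio of 0.01. At EB day 2 the members past the rule were Bhlhe41, higher in KO+WT against KO cells by a log2 ratio of 1.09 (0.519% of all genes were higher and 1.38% lower) and in KO+N-KR against KO cells by 1.06 (0.585%), and Vegfa in the comparison given above. In KO against f/f cells at EB day 2, Bhlhe41 was lower by the rule, with a log2 ratio of -1.36, as were 0.118% of all genes, while 1.30% were higher. Replicates 1 and 2 of Bhlhe41 at EB day 2 were at 5.50 and 6.25 CPM in KO+N-KR cells and 6.80 and 4.72 CPM in KO+WT cells. They were at 2.30 and 3.36 CPM in KO cells and 7.35 and 6.94 CPM in f/f cells. In replicate 2 both rescue lines were less than 2-fold above KO cells. No Bhlhe41 level reached 10 CPM, so none of these calls holds at that minimum.

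**Figure D2:**
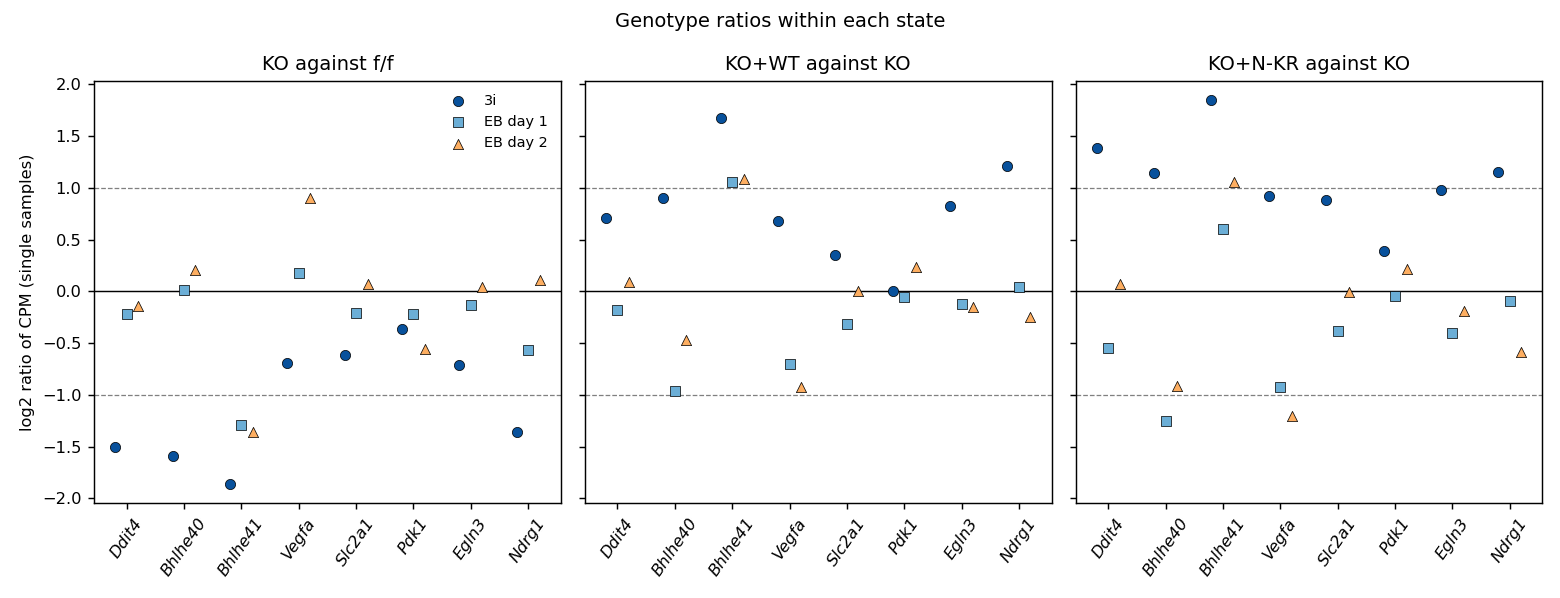
Log2 ratios of CPM between genotypes within each state, 1 symbol per gene and state, for KO against f/f, KO+WT against KO and KO+N-KR against KO cells. Dashed lines mark 2-fold. In 3i (dark circles) the ratios of KO to f/f cells run from -1.86 to -0.36 and those of KO+N-KR to KO cells from 0.39 to 1.85, while the EB symbols lie on both sides of 0. The 3 panels share the KO samples.

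Fibroblast feeder markers were present in 3i and differed between the genotypes. The 12 markers summed to 3654 CPM in KO+N-KR cells, 3835 CPM in KO+WT cells, 2975 CPM in KO cells and 2661 CPM in f/f cells in 3i. None of the 12 was at 0 there, although Lum and Dcn were under 0.5 CPM. Fn1, at 2026 to 3096 CPM in 3i, made up most of each sum. Of the 11 markers tested, 7 were higher in KO than in f/f cells, 11 were higher in KO+WT than in KO cells, and 3 were higher and 8 lower in KO+N-KR than in KO cells, with median log2 ratios of 0.06, 0.48 and -0.10. Of all genes, 49.9%, 47.9% and 48.1% were lower in the same comparisons. The part of the feeder markers in the result was not tested. In bulk samples, fewer cells of a type and less RNA per cell cannot be told apart.

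The differences between genotypes were tested where they recur over the 3 states, with edgeR's quasi-likelihood test on an additive model of genotype and state for the 12 samples and Benjamini-Hochberg adjustment over 15220 genes. A small p-value here means that a difference was even over the states. It says nothing of the spread between independently derived lines. In KO against f/f cells, 1 of the 5 genes tested, Pdk1, passed the threshold of 0.05, against 8.77% of all genes (4.45% higher and 4.32% lower). Pdk1 fell by 0.38 ± 0.08 (SE) on the log2 scale, with an adjusted p of 0.0202, and was lower in KO cells in 3 of 3 states. The call was lost without EB day 1 (adjusted p = 0.165) and without EB day 2 (0.0964). The adjusted p was 0.389 for Slc2a1, 0.449 for Egln3, 0.155 for Ndrg1 and 0.708 for Vegfa, with log2 fold changes of -0.23 ± 0.17, -0.22 ± 0.18, -0.53 ± 0.23 and 0.20 ± 0.29 (SE). Without the 3i samples Vegfa was called higher in KO cells, by 0.56 on the log2 scale (adjusted p = 0.0145), and without the KO 3i sample alone, a setting chosen after its values were seen, by 0.68 (adjusted p = 0.0211). In these 2 settings edgeR called 1362 and 1401 genes, 815 and 893 of them higher. Ndrg1 was called lower, at -0.52, when the 24 libraries were taken as samples (edgeR adjusted p = 0.0105). That setting counts the 2 libraries of a group as separate samples, although they differed by little more than sampling noise. It called 4874 genes, against 1335 in the reported fit, so its p-value does not measure biological replicates.

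Pdk1 was also lower in KO+WT against f/f cells, at -0.32 ± 0.08 (SE) on the log2 scale (edgeR adjusted p = 0.0307), and it was the 1 gene called of the 5, against 8.82% of all genes (3.65% higher and 5.17% lower). This call was lost without EB day 1 (adjusted p = 0.174) and without EB day 2 (0.0602). It shares the f/f samples with the comparison above. In KO+WT against KO cells 0 of the 5 genes were called by edgeR, against 15.8% of all genes (7.10% higher and 8.73% lower), with adjusted p-values of 0.437 to 0.983. At an unadjusted p under 0.05 the count was also 0, and DESeq2 called 0. In KO+N-KR against KO cells edgeR called 0 of the 5 (15.4% of all genes, 6.77% higher and 8.67% lower), 1 had an unadjusted p under 0.05 and DESeq2 called 0. Between the 2 rescue lines no difference of the 5 genes passed the threshold: edgeR called 0 in KO+N-KR against KO+WT cells (0.552% of all genes, 0.296% higher and 0.256% lower), with 0 at an unadjusted p under 0.05 and 0 by DESeq2. The widest of those log2 differences was 0.18 ± 0.17 (SE), for Slc2a1.

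Vegfa was called lower in both rescue lines than in KO cells once 3i was set aside. Without the 3i samples, its log2 fold change was -0.83 in KO+WT against KO cells (edgeR adjusted p = 0.000343) and -1.08 in KO+N-KR against KO cells (adjusted p = 4.31e-05). Such calls were not rare: without 3i, edgeR called 2852 genes in KO+WT against KO cells and 2934 in KO+N-KR against KO cells. Over all 12 samples those counts were 2410 and 2350. Without 3i, Egln3 (-0.29, adjusted p = 0.0175) and Ndrg1 (-0.36, adjusted p = 0.047) were also called lower in KO+N-KR against KO cells. Leaving out the KO 3i sample alone was a setting chosen after its values were seen. There the Vegfa log2 fold change was -0.86 (adjusted p = 0.00289) and -0.90 (adjusted p = 0.00263). Over all 12 samples it was -0.36 ± 0.29 and -0.38 ± 0.29 (SE), with adjusted p-values of 0.437 and 0.419. The Vegfa level of KO cells was thus above that of both rescue lines in EBs and below it in 3i. Endoderm markers also differed between the genotypes in EBs. The 10 markers summed to 456 and 568 CPM in KO+N-KR cells, 266 and 373 CPM in KO+WT cells, 337 and 467 CPM in KO cells and 260 and 382 CPM in f/f cells at EB day 1 and EB day 2, and none was at 0. In EB samples Lamb1 was at 127 to 270 CPM and Col4a1 at 58.3 to 136 CPM, while Gata6, Gata4, Sox17 and Sox7 were at most 9.42 CPM. KO+WT cells had lower levels of 9 of the 10 than KO cells at each EB day, while 8 at EB day 1 and 7 at EB day 2 were higher in KO+N-KR than in KO cells. KO cells had higher levels of all 10 than f/f cells at EB day 2. Their part in the Vegfa result was not tested.

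With the change from 3i to EBs, Vegfa fell while Pdk1 and Egln3 rose. At EB day 1 against 3i, 3 of the 5 genes tested were called, where 65.6% of all genes were (32.4% higher and 33.2% lower). Vegfa fell by 2.25 ± 0.26 (SE) on the log2 scale (edgeR adjusted p = 4.84e-06), in 4 of 4 genotypes. Pdk1 rose by 0.87 ± 0.07 (adjusted p = 2.18e-07) and Egln3 by 0.91 ± 0.16 (adjusted p = 0.0002), each in 4 of 4 genotypes. Slc2a1 and Ndrg1 had log2 fold changes of -0.10 ± 0.15 and -0.25 ± 0.20 (adjusted p = 0.56 and 0.284). Without the KO 3i sample, a setting chosen after its values were seen, Ndrg1 was called lower, at -0.53 on the log2 scale (edgeR adjusted p = 0.000472). That sample held the lowest Ndrg1 level, 24.5 CPM, so leaving it out favours a fall. In that setting edgeR called 9724 genes. As a description, Bhlhe40 was at -1.47 ± 0.28, Ddit4 at -0.34 ± 0.21 and Bhlhe41 at -0.15 ± 0.21 on the same scale. For Bhlhe40 the 4 genotypes were not alike: the log2 ratio was -2.35 in KO+N-KR cells, -1.82 in KO+WT cells, 0.05 in KO cells and -1.56 in f/f cells.

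At EB day 2 against 3i, 4 of the 5 genes tested were called, against 63.5% of all genes (33.0% higher and 30.5% lower). Vegfa was lower, at -1.74 ± 0.25 (SE) on the log2 scale (edgeR adjusted p = 4.52e-05), while Pdk1 was higher by 1.02 ± 0.07 (adjusted p = 5.44e-08) and Egln3 by 1.04 ± 0.16 (adjusted p = 6.44e-05). Slc2a1 was higher by 0.36 ± 0.15 (adjusted p = 0.042), a call that was lost with scaling by library totals (adjusted p = 0.0613), with DESeq2 (0.108) and without the KO 3i sample (0.167). Bhlhe41 was at 1.89 ± 0.18, Ddit4 at 0.76 ± 0.21 and Bhlhe40 at -0.71 ± 0.27, as a description. Between the EB days, Slc2a1 was the 1 gene called of the 5, against 55.3% of all genes (28.2% higher and 27.2% lower). It was higher at day 2 by 0.46 ± 0.15 (edgeR adjusted p = 0.0152). Calls between the EB days depended on the settings: without the 3i samples Vegfa, Pdk1, Egln3 and Ndrg1 were called higher at day 2 as well, with edgeR adjusted p-values of 0.000204, 0.0156, 0.0248 and 0.00475. Such calls were common, as edgeR called 8783 genes in that setting, 4605 of them higher at day 2. Ddit4 was at 1.10 ± 0.21 and Bhlhe41 at 2.04 ± 0.18 on the log2 scale for the same step, again without a test.

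**Figure D3:**
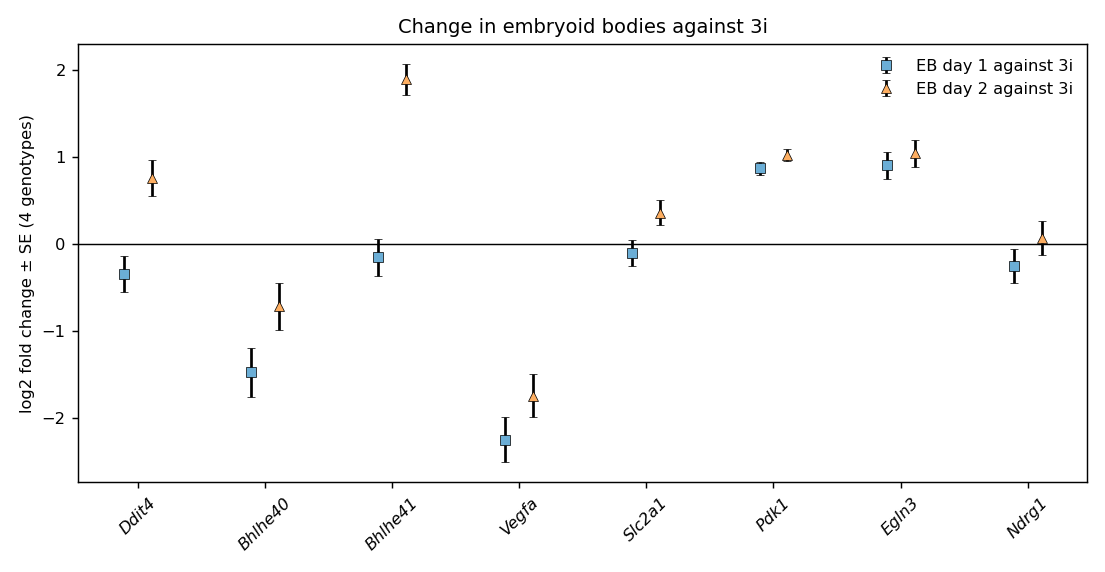
Log2 fold change of each gene at EB day 1 and EB day 2 against 3i, with bars of 1 SE from the additive fit over 4 genotypes. Vegfa is lowest of the 8 at both days, at -2.25 and -1.74, while Pdk1 and Egln3 lie near 1 and Bhlhe41 reaches 1.89 at day 2.

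Most feeder markers fell with the same change of state. Of the 11 tested, 9 were called lower and 0 higher at EB day 1 against 3i (33.2% and 32.4% of all genes). At EB day 2 against 3i, 9 were lower and 2 higher (30.5% and 33.0% of all genes). Thy1 and Dcn reached 22.7 and 1.73 CPM in EB samples, against at most 8.35 and 0.485 CPM in 3i samples. The 12 markers summed to 1008 to 1172 CPM in EB samples, against 2661 to 3835 CPM in 3i samples. Fn1, at 873 to 1024 CPM, made up most of the EB sums. Of the 12, Lum was at 0 in 3 EB samples. Their part in the fall of Vegfa and Bhlhe40 was not tested. Of the 6 endothelial and blood markers, Hbb-bh1 was at 0 in all 12 samples and Cdh5 and Ptprc were at most 0.268 and 0.488 CPM, while Pecam1, which ES cells also express, was at 84.8 to 125 CPM in EB samples and 169 to 201 CPM in 3i samples. Tek was at 4.73 to 16.8 CPM in EB samples and 6.29 to 15.3 CPM in 3i samples, and was higher in KO+WT against f/f cells by 1.23 ± 0.26 (SE) on the log2 scale (edgeR adjusted p = 0.0106). Tie1 was at most 1.38 CPM and was higher at EB day 2 against 3i by 1.51 ± 0.54 (adjusted p = 0.0267).

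Among themselves the 8 genes did not follow 1 pattern. Across the 12 samples, Pearson's r of log2 CPM was 0.94 between Ddit4 and Slc2a1, 0.90 between Pdk1 and Egln3, 0.87 between Ddit4 and Bhlhe41 and 0.86 between Bhlhe40 and Vegfa. Vegfa and Pdk1 ran in opposite directions, with an r of -0.80. These values describe 12 samples that share states and lines, and differences between 3i and EBs make up part of each. Genes were ranked by r if they had at least 5 CPM and an SD of log2 CPM of at least 0.5. The genes most like Vegfa among 1747 ranked were Elf3 (r = 0.99), Pvr and Slc2a3 (0.98 each), of which Slc2a3 encodes the glucose transporter GLUT3. Pdk1 ran closest to Foxh1, a partner of Smad proteins in early development, with an r of 0.97. Bhlhe40 ran closest to 0610040F04Rik (0.94), Herpud1, a gene of the endoplasmic reticulum stress response (0.93), and Egln1, the main HIF hydroxylase (0.90). Egln3 ran closest to Nefl (0.94) and Bhlhe41 to Rgs11 (0.94). Among the genes ranked, Ddit4 ran closest to Elovl4 (0.87). Slc2a1, with the higher r of 0.94 to Ddit4, was not ranked, because its SD of log2 CPM was under 0.5. Ndrg1 had the least close partners, with Ddit4 first at an r of 0.71.

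The other genes of the HIF pathway were counted from lists chosen with earlier results of these data known. Of 37 other textbook HIF targets, 32 were lower in KO than in f/f cells in 3i, with a median log2 ratio of -0.37. All genes had a median of 0.00 there, and 49.9% of them were lower. At EB day 1 the count was 28 of 37 with a median of -0.18 (all genes 0.00, 49.8% lower). At EB day 2 it was 17 of 37 with a median of 0.05 (all genes -0.01, 50.7% lower). The low levels in 3i included Bnip3, a mitophagy receptor, at 114 CPM in KO cells and 204 CPM in f/f cells, and Ankrd37 at 8.06 CPM in KO cells and 19.1 CPM in f/f cells. These 2 were chosen after their values were seen. In KO+WT against KO cells in 3i, 32 of the 37 were higher, with a median log2 ratio of 0.26, and this comparison shares the KO sample. All genes had a median of 0.01 there, and 47.9% of them were lower.

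**Figure D4:**
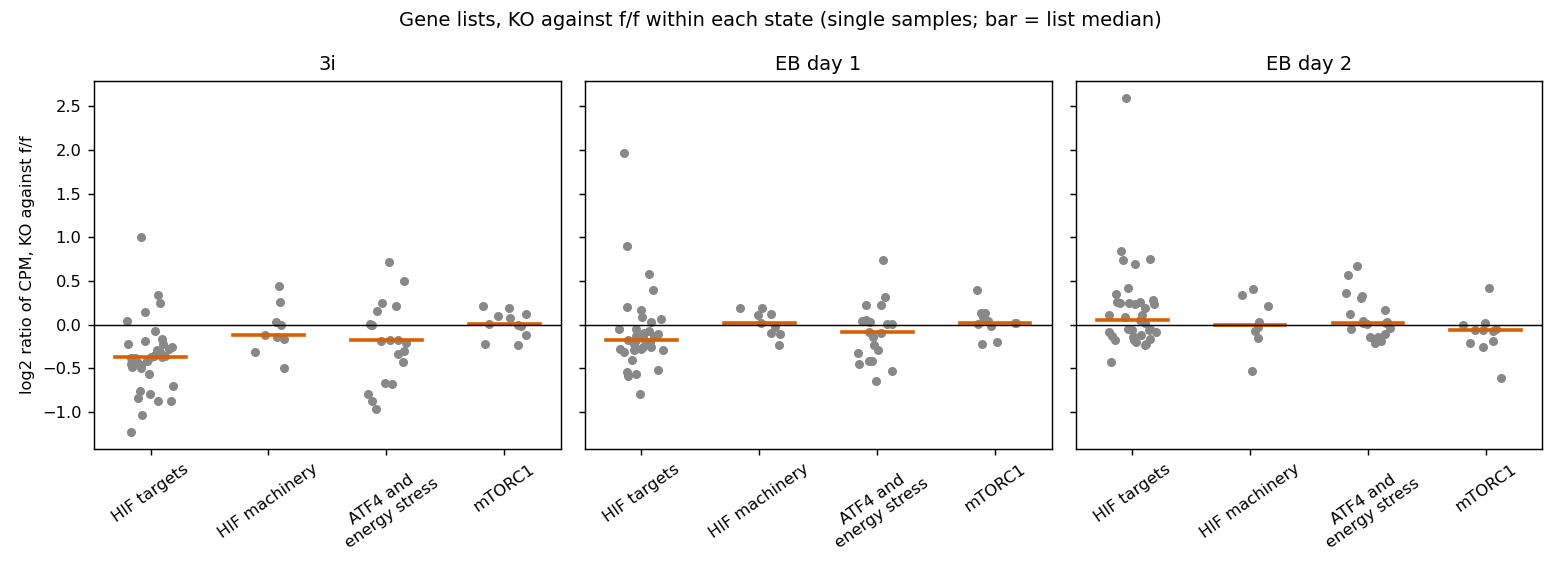
Log2 ratios of CPM in KO against f/f cells within each state, 1 point per gene, for 4 gene lists (37 HIF targets other than the 8 genes, 9 genes of the HIF machinery, 20 ATF4 and energy-stress genes and 11 mTORC1 regulators). Orange bars are list medians. The HIF target bar lies at -0.37 in 3i, -0.18 at EB day 1 and 0.05 at EB day 2, and the highest HIF target point at each EB day is Car12.

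Over the 3 states, edgeR's test called 1 of the 37 HIF targets higher and 6 lower in KO against f/f cells, where 4.45% of all genes were higher and 4.32% lower, with a median log2 fold change of -0.18. Car12, a carbonic anhydrase gene, rose by 1.90 ± 0.29 (SE; adjusted p = 0.00684), and Aldoc, an aldolase gene, fell by 0.58 ± 0.16 (adjusted p = 0.0395). The other genes called lower, named after their values were seen, were Eno1, Pgk1, Aldoa, Ldha and Tpi1, which like Aldoc encode enzymes of glycolysis or lactate formation, with log2 fold changes between -0.32 and -0.26. The count of genes called lower was 1 without the KO 3i sample, 3 with library totals, 10 with DESeq2, 11 without the filter, 0 without EB day 1 and 2 without EB day 2. In KO+WT against KO cells 3 were higher and 1 lower (7.10% and 8.73% of all genes), with Car12 at -1.05 ± 0.27 and Lox, a collagen cross-linking enzyme gene, at 0.51 ± 0.15 (adjusted p = 0.02 and 0.0307). In KO+N-KR against KO cells 2 were higher and 2 lower (6.77% and 8.67% of all genes), with Car12 at -1.17 ± 0.27 (adjusted p = 0.0125).

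With the change of state, 28 of the 37 HIF targets fell and 2 rose at EB day 1 against 3i, and their median log2 fold change was -0.53. Of all genes 33.2% fell and 32.4% rose there. Between EB day 1 and EB day 2, 27 rose and 3 fell, with a median of 0.45, where 28.2% of all genes rose and 27.2% fell. Lox, which had the largest fall at EB day 1 (-4.75 ± 0.13, SE; edgeR adjusted p = 1.84e-11), is also expressed by fibroblasts. The list therefore fell at EB day 1 with Vegfa and Bhlhe40, while Pdk1 and Egln3 rose. At EB day 2 against 3i, 6 of the 37 rose and 10 fell, fewer than the 63.5% called of all genes, and the median was 0.00.

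Of 9 genes of the HIF machinery, 5 rose and 2 fell at EB day 1 against 3i, where 65.6% of all genes were called. Epas1, which encodes HIF-2 alpha, rose by 1.94 ± 0.14 (SE) on the log2 scale (edgeR adjusted p = 6.5e-08), and Egln1 fell by 0.94 ± 0.14 (adjusted p = 4.86e-05). At EB day 2 against EB day 1, Epas1 fell by 1.75 ± 0.14 (adjusted p = 4.79e-07) and Arnt2 rose by 1.25 ± 0.14 (adjusted p = 8.67e-06). Against 3i at EB day 2, where 63.5% of all genes were called, 4 rose and 1 fell, among them Arnt2 at 2.08 ± 0.15 and Hif1a, which encodes HIF-1 alpha, at 0.49 ± 0.05 (adjusted p = 6.26e-08 and 1.42e-06). Arnt, the shared partner of the HIF alpha subunits, was the 1 gene of the 9 called in KO against f/f cells, against 8.77% of all genes. There it fell by 0.31 ± 0.07 (adjusted p = 0.0246). In KO+WT against KO cells 2 of the 9 were called, against 15.8% of all genes. Arnt was higher by 0.30 ± 0.07 and Egln1 was at -0.56 ± 0.16 (adjusted p = 0.0144 and 0.0295). In KO+N-KR against KO cells 2 of the 9 were called, against 15.4% of all genes. Arnt was higher by 0.28 ± 0.07 and Arnt2 was at -0.61 ± 0.17 (adjusted p = 0.0212 and 0.0279). These comparisons share the KO samples.

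Ddit4 sits at the meeting of energy stress and mTORC1, and 20 ATF4 and energy-stress genes were counted beside it. At EB day 1 against 3i, 14 fell and 4 rose, where 33.2% of all genes fell and 32.4% rose, with a median log2 fold change of -0.68. Atf3 fell by 2.82 ± 0.29 (SE) and Asns, the asparagine synthetase gene, by 2.00 ± 0.12 (edgeR adjusted p = 1.84e-06 and 9.61e-09). At EB day 2 against 3i, 11 fell and 3 rose (30.5% and 33.0% of all genes). In KO against f/f cells 1 of the 20 was called, near the 8.77% of all genes: Ddit4l, the paralog of Ddit4, rose by 0.50 ± 0.13 (adjusted p = 0.0387), whereas Ddit4 had a log2 fold change of -0.57 ± 0.24. In KO+N-KR against KO cells 3 fell (8.67% of all genes), led by Mthfd2 at -0.56 ± 0.12 and Phgdh at -0.42 ± 0.11, genes of folate and serine metabolism (adjusted p = 0.00733 and 0.0216).

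Of 11 mTORC1 regulators, 0 were called by edgeR or DESeq2 in KO against f/f cells, while 3 had an unadjusted p under 0.05. Of all genes edgeR called 8.77% there. Tsc2, which encodes the mTORC1 brake through which DDIT4 acts, was higher by 0.22 ± 0.06 (SE) in KO+WT against KO cells and by 0.24 ± 0.06 in KO+N-KR against KO cells (edgeR adjusted p = 0.0208 and 0.0128). It was the 1 gene of the 11 called in each, against 15.8% and 15.4% of all genes. At EB day 1 against 3i, 6 of the 11 rose and 3 fell, where 65.6% of all genes were called, with Prkaa2, a catalytic subunit gene of the energy sensor AMPK, at -1.39 ± 0.11 and Deptor at 0.65 ± 0.08 (adjusted p = 1.99e-07 and 9.28e-06).

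Bhlhe40 and Bhlhe41 feed back on the clock, and of 14 clock genes 7 rose and 4 fell at EB day 1 against 3i, where 65.6% of all genes were called, with Hlf at 2.48 ± 0.22 (SE) and Npas2 at -2.48 ± 0.52 on the log2 scale (edgeR adjusted p = 5.08e-07 and 0.00079). In KO against f/f cells 1 of the 14 was called, against 8.77% of all genes: Per3 rose by 0.59 ± 0.15 (adjusted p = 0.0323). Hlf was higher by 1.15 ± 0.25 in KO+WT against KO cells and by 1.61 ± 0.25 in KO+N-KR against KO cells (adjusted p = 0.00852 and 0.00105). In each of those comparisons 2 of the 14 clock genes were called, against 15.8% and 15.4% of all genes. Of the 9 other VEGF ligands and receptors, 3 rose and 3 fell at EB day 1 against 3i, a share close to that of all genes. Nrp2 and Kdr, both receptors for VEGF ligands, rose by 1.98 ± 0.14 and 1.86 ± 0.40 (adjusted p = 4.35e-08 and 0.000975) where Vegfa fell. In KO against f/f cells 0 of the 9 were called by edgeR or DESeq2, and 1 had an unadjusted p under 0.05. Of all genes edgeR called 8.77% in that comparison.

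The paralogs were counted as a list of their own. At EB day 1 against 3i, 7 of 11 paralogs fell and 1 rose, where 33.2% of all genes fell and 32.4% rose, led by Ndrg4 at -1.49 ± 0.12 (SE) and Ndrg2 at -1.32 ± 0.10 on the log2 scale (edgeR adjusted p = 2.24e-07 and 1.36e-07). Pdk2 and Pdk4 were at -0.74 ± 0.14 and -1.10 ± 0.14 (adjusted p = 0.000435 and 1.49e-05) where Pdk1 rose, and Egln1 fell where Egln3 rose. Pdk2, Pdk4 and these pairings were chosen after their values were seen. Slc2a3, the paralog of Slc2a1, was at -0.85 ± 0.13 at EB day 2 against 3i (adjusted p = 5.46e-05).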

How the data were processed

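Poly(A) RNA was sequenced in 24 libraries, 2 for each of 4 genotypes in 3 states. The authors deposited raw counts in a single table with 23284 gene symbols and 30 columns. Of these columns 24 match the labels, and the other 6 were left out. The submitters' processing notes name STAR 2.5.2b, DESeq2 and mm9. How reads were counted, with which strand setting and annotation, is not stated in them. Library totals ran from 7553683 to 14426034 counts.

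The members and the lists were chosen with earlier results of these data known. The variance of count differences between the 2 libraries of a group was 1.10 to 1.18 times that of sampling (2.81 to 15.5 times between genotypes), so they were summed to 12 samples, and p-values do not measure biological replicates. CPM values were computed from the deposited counts with TMM scaling. In edgeR 4.0.16 (R 4.3.3), filterByExpr left 15220 genes, all 8 members among them, and an additive model of genotype and state with 6 residual degrees of freedom (common coefficient of variation 7.97%) was tested by quasi-likelihood F-test with Benjamini-Hochberg adjustment at 0.05. The SE is the absolute log2 fold change divided by the square root of F. Log2 ratios between single samples used a prior count of 2. Members were all named, from each list the 2 genes with the largest change among those called (1 gene is not reported here), and for likeness the genes with the highest r among those with at least 5 CPM and an SD of log2 CPM of at least 0.5. On counts simulated for KO against f/f cells in 12 samples, 82% of genes changed 1.5-fold were recovered among 15080 genes fitted, with 11 false calls. Alternatives were library totals, DESeq2 1.42.0, no filter, each state or library left out, 2 genotypes alone and 24 libraries with and without the replicate number as a block. Symbols Vegfd and Ciart were matched under older names.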

Additional observations from a re-analysis of the deposited data

Results flagged for a closer look

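Vegfa and Bhlhe40 were picked out because their difference between the same 2 groups pointed in opposite directions in 2 states or genotypes. For each, 1 sample stands for each group, and the difference between the 2 effects was not tested.

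For Vegfa, the log2 ratio of KO to f/f cells was 0.90 at EB day 2 and -0.69 in 3i, a difference of 1.59. The ratio of KO+WT to KO cells was -0.70 at EB day 1 and 0.68 in 3i, a difference of -1.38, and at EB day 2 it was -0.92, a difference of -1.60 from 3i.

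For Bhlhe40, the ratio of KO+WT to KO cells was -0.96 at EB day 1 and 0.90 in 3i, a difference of -1.87. The change from 3i to EB day 2 was 0.67 in KO cells and -1.13 in f/f cells, a difference of 1.80. In KO+WT cells that change was -0.70, which differs from KO cells by -1.37. All 6 differences rest on the KO 3i sample, in which Vegfa was at 74.5 and 72.1 CPM and Bhlhe40 at 62.8 and 56.5 CPM in the 2 libraries.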

How the results depend on the processing

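Of the member fold changes recomputed under the alternatives, 608 kept their direction and side of the threshold or, for the 3 genes given as a description, stayed within 1 SE. Of the 5 genes tested, 7 values lost a call, 25 gained one and 29 turned sign, 0 of them called in the reported fit. Of the 3 genes given as a description, 27 values moved by over 1 SE and 12 turned sign. Among these, Bhlhe40 in KO against f/f (-0.35) was at 0.11 without 3i and 0.16 without the KO 3i sample, and Ddit4 in KO+N-KR against KO (0.28) was at -0.22 and -0.085. The cause was not tested.

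The number of genes called over the whole table moved when a state was left out. For KO against f/f (1335 genes) it was 0 without EB day 1 (edgeR, 2272 at an unadjusted p under 0.05) and 339 without EB day 2, 863 with the 2 genotypes alone and 789 to 948 with 1 library of each pair. For KO+WT against KO (2410) it was 225 and 1263 without EB day 1 and EB day 2. For KO+N-KR against KO (2350) it was 328 and 1105, and 918 with the 2 genotypes alone. For KO+N-KR against KO+WT (84) it was 30 without EB day 1, 210 with the 2 genotypes alone and 133 with DESeq2. For KO+WT against f/f (1343) it was 175 without EB day 1. With library totals, 1073 genes were higher and 323 lower in KO against f/f (678 and 657 with TMM), and 764 higher and 635 lower in KO+WT against f/f (556 and 787).

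Same-numbered libraries did not deviate together (correlations of -0.04 to 0.04 over 66 pairs of groups), although their library names in the labels share a beginning, 1 for replicate 1 and another for replicate 2. The labels do not say what it marks, and each group has 1 library of each. With 24 libraries taken as samples, the counts without and with the replicate block were 4874 and 4746 for KO against f/f, 5432 and 5313 for KO+WT against KO, 642 and 600 for KO+N-KR against KO+WT, 5445 and 5356 for KO+N-KR against KO and 4226 and 4115 for KO+WT against f/f.

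By size at a minimum of 10 CPM in place of 5, the genes past the rule were 35 of 55 (KO against f/f, 3i), 115 of 216 (KO against f/f, EB day 2), 41 of 81 (KO+WT against KO, 3i), 175 of 289 (KO+WT against KO, EB day 2), 64 of 107 (KO+N-KR against KO, 3i), 98 of 157 (KO+N-KR against KO, EB day 1) and 221 of 363 (KO+N-KR against KO, EB day 2).

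The values of the 5 genes tested that turned sign were, on the log2 scale, as follows. Without EB day 2, Vegfa was at -0.25 in KO against f/f, 0.029 in KO+WT against KO, 0.089 in KO+N-KR against KO+WT and 0.12 in KO+N-KR against KO, and Pdk1 at -0.016 in KO+WT against KO. Without EB day 1, Slc2a1 was at 0.15 in KO+WT against KO, and in KO+N-KR against KO+WT Vegfa was at 0.048 and Egln3 at 0.068. Without 3i, Egln3 was at -0.14 and Ndrg1 at -0.12 in KO+WT against KO, Slc2a1 at -0.037 and Pdk1 at -0.00067 in KO+N-KR against KO+WT, and Slc2a1 at -0.19, Egln3 at -0.29 (adjusted p = 0.0175) and Ndrg1 at -0.36 (adjusted p = 0.047) in KO+N-KR against KO. Without the KO 3i sample, an alternative chosen after seeing the data, Egln3 was at 0.046 in KO against f/f, Egln3 at -0.14 and Ndrg1 at -0.11 in KO+WT against KO, Slc2a1 at -0.060, Egln3 at -0.19 and Ndrg1 at -0.29 in KO+N-KR against KO, and Ndrg1 at -0.23 at EB day 2 against 3i. Slc2a1 in KO+WT against KO was at 0.0090 with the 2 genotypes alone, 0.00065 with DESeq2 and from -0.036 to 0.032 with 1 library of each pair left out. Vegfa in KO+N-KR against KO+WT was from -0.015 to 0.031 with 1 library of each pair left out, and 0.021 and 0.023 with 24 libraries, with and without the replicate block. Ndrg1 at EB day 2 against 3i was from -0.021 to 0.14 with 1 library of each pair left out.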
